A study of Mus musculus with 12 samples.

Results

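Colon epithelial cells carry enzymes that release hydrogen peroxide, superoxide or nitric oxide, and 7 genes for these enzymes and their partners were followed here: Duox2, Duoxa2, Nox1, Noxo1, Noxa1, Cyba and Nos2. They were taken by gene symbol from the 54532 genes of the deposited count table, with earlier results of these data known. All 7 passed the filter on low counts that left 16904 genes for testing. RNA-Seq covered the colon of male wild-type C57BL/6J mice, 5 weeks old when obtained, in 12 libraries that fall into 4 groups of 3. Each library is called a mouse here, although the labels do not say that every library is a separate animal, and p-values measure the spread between these libraries. The control group drank plain water, the model group received dextran sodium sulfate (DSS), which damages the lining of the colon when drunk, and the Rhy and DXM groups received DSS with rhynchophylline (Rhy), an alkaloid of Uncaria, or with the glucocorticoid dexamethasone (DXM) at 4 mg/kg. In the acute colitis experiment DSS was given at 3% and Rhy daily at 2, 4 or 8 mg/kg for 7 days, and the Rhy dose of the sequenced mice is not given in the sources used here. The libraries come from pieces of whole colon, so that fewer epithelial cells and less RNA per cell cannot be told apart.

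DUOX2 is a dual oxidase that releases hydrogen peroxide at the apical surface of the epithelium, and it reaches that surface only with its maturation factor DUOXA2. NOX1 is the superoxide-producing oxidase of colonic crypts, and it works with the membrane subunit p22phox (Cyba), the organizer NOXO1 and the activator NOXA1. NOS2 is the inducible synthase that makes nitric oxide from arginine. Epithelial cells and macrophages produce this synthase in response to cytokines and bacterial products. These enzymes take part in keeping bacteria away from the mucosa and are known to be induced in colitis.

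Duox2 and Duoxa2 lie head to head on chromosome 2. In the coordinates of the deposited table, which follow the mouse build mm10, Duox2 (ENSMUSG00000068452) occupies 122279247 to 122298165 on the minus strand and Duoxa2 (ENSMUSG00000027225) occupies 122298900 to 122302885 on the plus strand, with 734 bases between their starts. GENCODE M21 begins Duox2 further into that stretch, at 122298449. The upstream stretch of Duoxa2 is shown because of all genes Duoxa2 had the pattern most like that of Duox2, and that of Noxa1 because it holds GCGTG at more than 1 place and runs into no other gene. This pentamer is the core to which the aryl hydrocarbon receptor (AhR) binds, the receptor whose pathway the study examined. Both sequences are RefSeq's 250 bases before the start on GRCm38.p6, written from 5′ to 3′ on the gene's strand, with GCGTG or its reverse complement in capitals.
Duoxa2, chr2:122298650-122298899, plus strand: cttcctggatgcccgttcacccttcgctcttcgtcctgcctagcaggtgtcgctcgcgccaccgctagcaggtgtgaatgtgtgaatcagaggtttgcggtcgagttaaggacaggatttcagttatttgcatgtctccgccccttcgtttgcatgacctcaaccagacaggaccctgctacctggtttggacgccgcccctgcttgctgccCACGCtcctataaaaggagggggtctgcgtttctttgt
Noxa1, chr2:25095206-25095455, minus strand: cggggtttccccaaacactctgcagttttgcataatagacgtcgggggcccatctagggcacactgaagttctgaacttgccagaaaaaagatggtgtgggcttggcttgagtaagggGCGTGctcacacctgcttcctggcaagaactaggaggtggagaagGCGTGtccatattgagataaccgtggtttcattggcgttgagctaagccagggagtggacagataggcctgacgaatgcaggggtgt

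RefSeq's promoter table held 6 of the 7 members, all but Nos2. GCGTG was searched on both strands and occurred in 3 of the 6 windows, with 1 match in Duoxa2, 2 in Noxa1 and 4 in Noxo1, whose window runs into the neighbouring gene Gfer. The same pentamer occurred in 28.2% of all 32851 windows of that length, at least 2 times in 8.63% and at least 3 times in 2.77%. TTCNNNGAA, a STAT site, was in 0 of the 6 windows and in 7.02% of all, and TATAAA was in the Duoxa2 window and in 12.4% of all. These matches describe letters only and were not set against any binding data.

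Compared per gene length, on the FPKM values that the authors deposited, the members spanned a wide range of levels. The median over the 12 libraries was 106 FPKM for Cyba, 32.3 for Noxa1, 13.9 for Duox2, 10.3 for Duoxa2, 2.46 for Nos2, 1.63 for Nox1 and 0.729 for Noxo1. Cyba was above Noxa1 in 12 of the 12 libraries, Noxa1 above Duox2 in 11, Duox2 above Duoxa2 in 11 and Duoxa2 above Nos2 in 12. The lower neighbours were less separated, since Nos2 exceeded Nox1 in 9 libraries and Nox1 exceeded Noxo1 in 9. The partners of NOX1 thus stood at opposite ends of the list, with the shared subunit p22phox highest and the organizer lowest. Noxo1 shares 2581 bases with Tbl3 on the opposite strand, and whether the counting used strand is not stated. How far this overlap changed the measured level of Noxo1 was not tested. In the control group the order of the last pair was turned, with a median of 1.19 FPKM for Noxo1 and 0.436 for Nox1.

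The libraries differed in ways that the groups do not explain. Total counts were 14346478 to 17749716 reads on genes, and mitochondrial genes took 6.33% to 25.7% of them. Hoxb13, a gene that marks the distal colon, was at 0 to 1.49 CPM in control 3, model 3 and Rhy 1 and at 72.0 to 316 CPM in the other 9 libraries. Model 1 and model 2 resembled each other most, with an SD of the log2 difference over genes of 0.353 against 0.631 for the next pair. Markers of colon epithelium were abundant in all libraries, with Epcam at 1144 to 2207 CPM. Neutrophil markers were close to absent, since S100a8 reached at most 4.66 CPM and S100a9 at most 3.80 CPM, both in DXM 3, and Elane had no count in any library. An exception was Ly6g, which ranged from 2.42 CPM in control 3 to 682 CPM in control 1 and made up 72.1% to 99.6% of the summed neutrophil list.

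**Figure D1:**
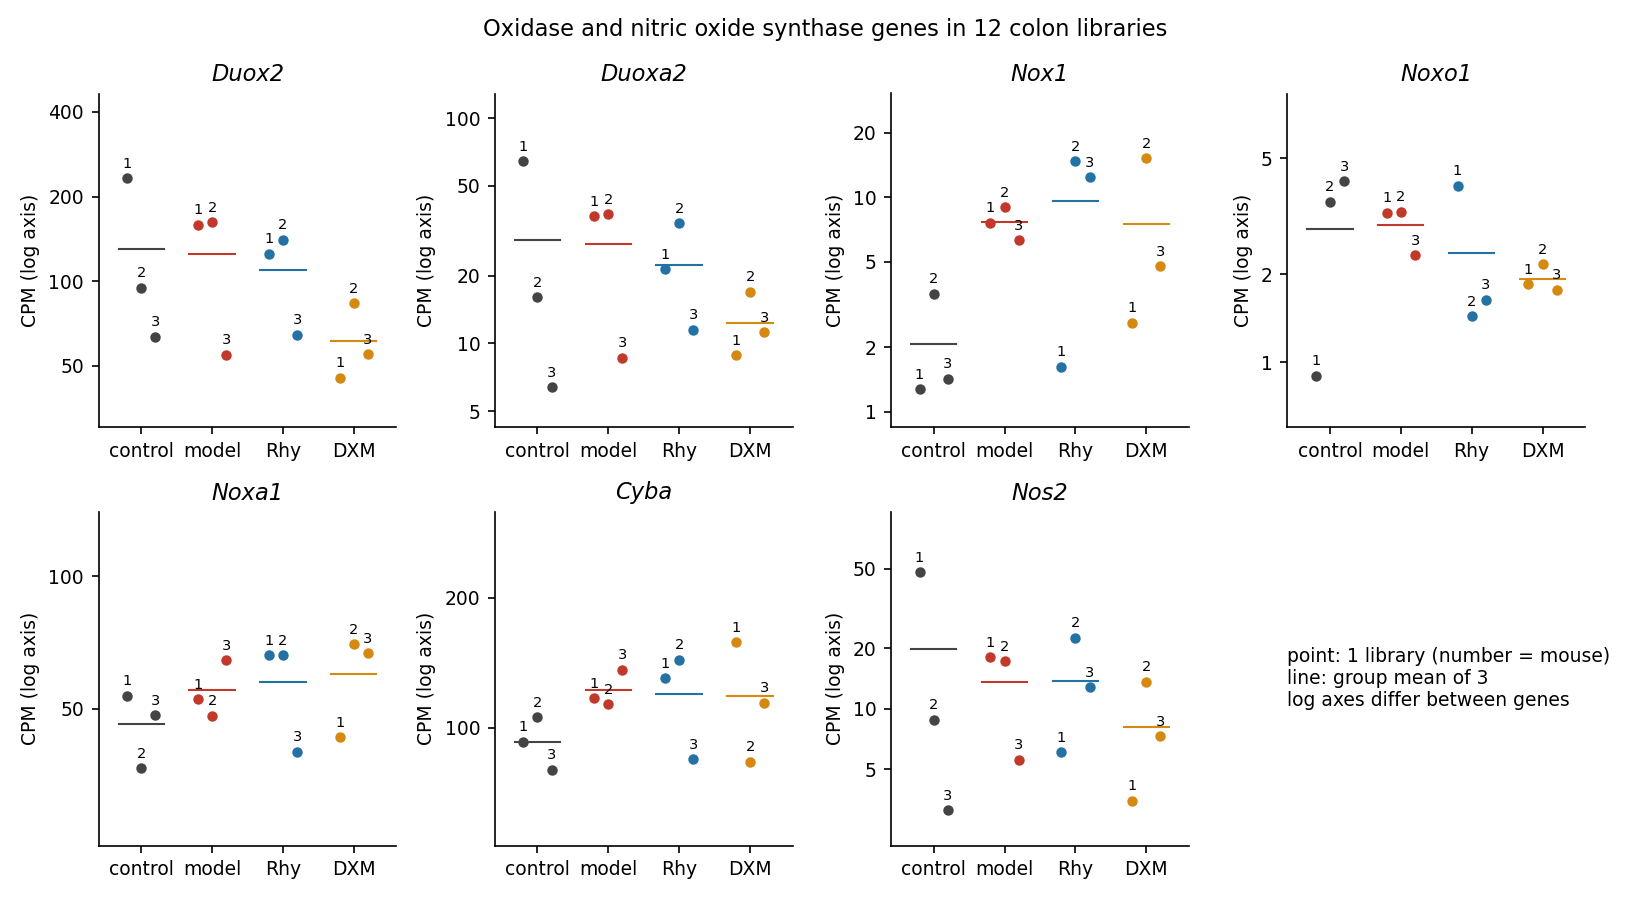
CPM (reads scaled to the library size by TMM, logarithmic axis with its own range for each gene) of the 7 genes in the 12 libraries, with numbered points for mice and lines for group means. Duox2, Duoxa2 and Nos2 were highest in control 1, Nox1 was higher in the 3 model libraries than in the 3 control libraries, and Noxa1 and Cyba varied less than 2-fold.

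The plot of CPM by library shows that the spread between mice of a group was wide for the dual oxidase, its factor and the synthase, and narrow for the abundant subunits. The SD of log2 CPM over the 12 libraries was 1.27 for Nox1, 1.14 for Nos2, 1.03 for Duoxa2, 0.76 for Duox2, 0.64 for Noxo1 and 0.32 for both Noxa1 and Cyba. The median over all tested genes was 0.46, and 95.8% of the genes varied less than Nox1, 93.7% less than Nos2 and 91.0% less than Duoxa2. For Noxa1 and Cyba these shares were 28.4% and 29.0%.

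Duox2 did not separate the groups exposed to DSS from the control group. Its level was 232, 94.8 and 63.5 CPM in the control mice, 159, 162 and 54.9 CPM in the model mice, 125, 140.4 and 64.6 CPM in the Rhy mice and 45.5, 83.6 and 55.0 CPM in the DXM mice. The groups overlapped, the highest library was a control, and each of the first 3 groups held a library with low Duox2 beside others with more. The means were 130.2 ± 89.8 CPM in the control group, 125 ± 61.1 in the model group, 110.0 ± 40.1 in the Rhy group and 61.4 ± 19.9 in the DXM group (SD, n = 3 each). Model mice differed from control mice by a log2 fold change of -0.05 (SE 0.51, 95% interval -1.18 to 1.07), at an adjusted p of 0.98 by the quasi-likelihood test of edgeR. This interval leaves room for a change of 2-fold in either direction.

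Duoxa2, the partner that DUOX2 needs to mature, repeated this order of mice with larger steps. It stood at 64.2, 16.1 and 6.37 CPM in the control mice, 36.6, 37.4 and 8.64 CPM in the model mice, 21.3, 34.2 and 11.5 CPM in the Rhy mice and 8.85, 16.9 and 11.2 CPM in the DXM mice. Here too control 1 was the highest library, and control 3 was the lowest. Model mice differed from control mice by a log2 fold change of -0.07 (SE 0.74, adjusted p 0.98).

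Nos2 varied 15.3-fold between its lowest and highest library, the widest range of the 7 genes. It was at 47.8, 8.83 and 3.13 CPM in the control mice, 18.04, 17.3 and 5.60 CPM in the model mice, 6.08, 22.6 and 12.8 CPM in the Rhy mice and 3.50, 13.6 and 7.29 CPM in the DXM mice. Both the highest and the lowest library belonged to the control group, so every other group lay within its range. Against the control group the log2 fold change was -0.54 (SE 0.85, adjusted p 0.87) in the model group, -0.52 (SE 0.85, adjusted p 0.84) in the Rhy group and -1.28 (SE 0.86, adjusted p 0.44) in the DXM group.

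The direction of all 3 genes in the model and Rhy groups against the control group turned without control 1. Without that library, the log2 fold change of the model group became 0.66 for Duox2 (p 0.196), 1.30 for Duoxa2 (p 0.0763) and 1.20 for Nos2 (p 0.136), higher in place of lower, with adjusted p-values of 0.657, 0.538 and 0.602. The Rhy group went to 0.48 for Duox2, 1.00 for Duoxa2 and 1.22 for Nos2. Leaving out model 3 also turned Duox2 and Duoxa2 against the control group, to 0.26 and 0.32, and Nos2 remained lower at -0.20. Without control 3, the values were -0.41 for Duox2, -0.57 for Duoxa2 and -1.08 for Nos2.

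**Figure D2:**
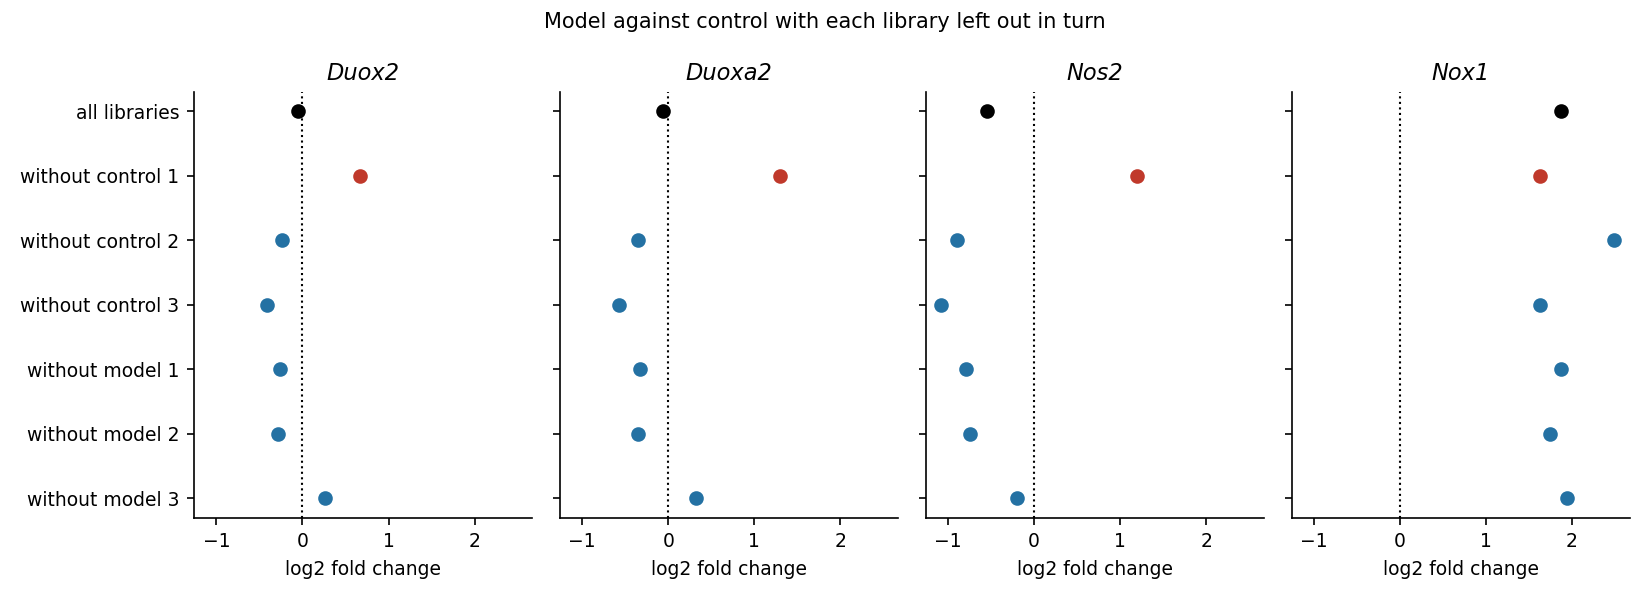
Log2 fold change of the model group against the control group (horizontal axis) for 4 genes, with all 12 libraries (black), without control 1 (red) and without each of the other libraries of these groups (blue). Without control 1 the values of Duox2, Duoxa2 and Nos2 lay above 0, at 0.66, 1.30 and 1.20, and those of Nox1 lay above 0 at every setting, from 1.62 to 2.49.

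The 3 genes went up and down together from mouse to mouse, as the scatter of CPM values shows. Over the 12 libraries the Pearson correlation of log2 CPM between Duox2 and Duoxa2 was 0.96 and the Spearman correlation was 0.94. Within groups, after the group means were taken off, the Pearson value was 0.98, and without the libraries farthest from the median (control 1 and DXM 1) it was 0.94. Among the 16903 other tested genes Duoxa2 was the gene most alike to Duox2. Nos2 correlated with Duoxa2 at 0.90 (0.79 without control 1 and control 3) and with Duox2 at 0.82 (0.65 without control 1 and DXM 1). These points are mice of 4 groups that share position along the colon and cell makeup within each library, and the values are given as a description.

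The share of Duoxa2 differed between libraries. Its count was 27.7% of the Duox2 count in control 1, 24.4% in Rhy 2 and 23.0% in model 1 and model 2, the 4 libraries with the most of both genes, and 10.03% in control 3. The share did not follow the level throughout, since it was 17.0% in Rhy 1, which came next in level, 15.7% to 17.8% in control 2, model 3 and Rhy 3, and 19.5% to 20.3% in the DXM mice, where Duox2 was low. Per gene length, these shares correspond to Duoxa2 at 40.3% to 111% of the Duox2 level.

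The genes most like Duox2 after Duoxa2 were Gpaa1 (Pearson 0.89), Gpatch1 (0.88), Mtfmt (0.87) and Sprr2b (0.87), and those most like Nos2 were Zfp750 (0.95), Cd14 (0.92), Muc13 (0.92), Jpt1 (0.91) and Sprr2b (0.91), each over 12 libraries. Muc13 encodes a transmembrane mucin of the epithelium, Sprr2b a cornified envelope protein, Zfp750 a factor of epithelial differentiation and Cd14 the co-receptor for lipopolysaccharide. Duoxa2 ranked 7 among the 16903 genes by likeness to Nos2, and Duox2 ranked 45. Cd14 ran from 161 CPM in DXM 1 to 399 CPM in control 1. Markers of macrophages differed in level, with Csf1r at 3.51 to 32.1 CPM in the 12 libraries, Adgre1 at 1.11 to 8.31 CPM and Lyz2 at 43.7 to 448 CPM. Which cells the Nos2 and Cd14 reads came from was not tested.

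**Figure D3:**
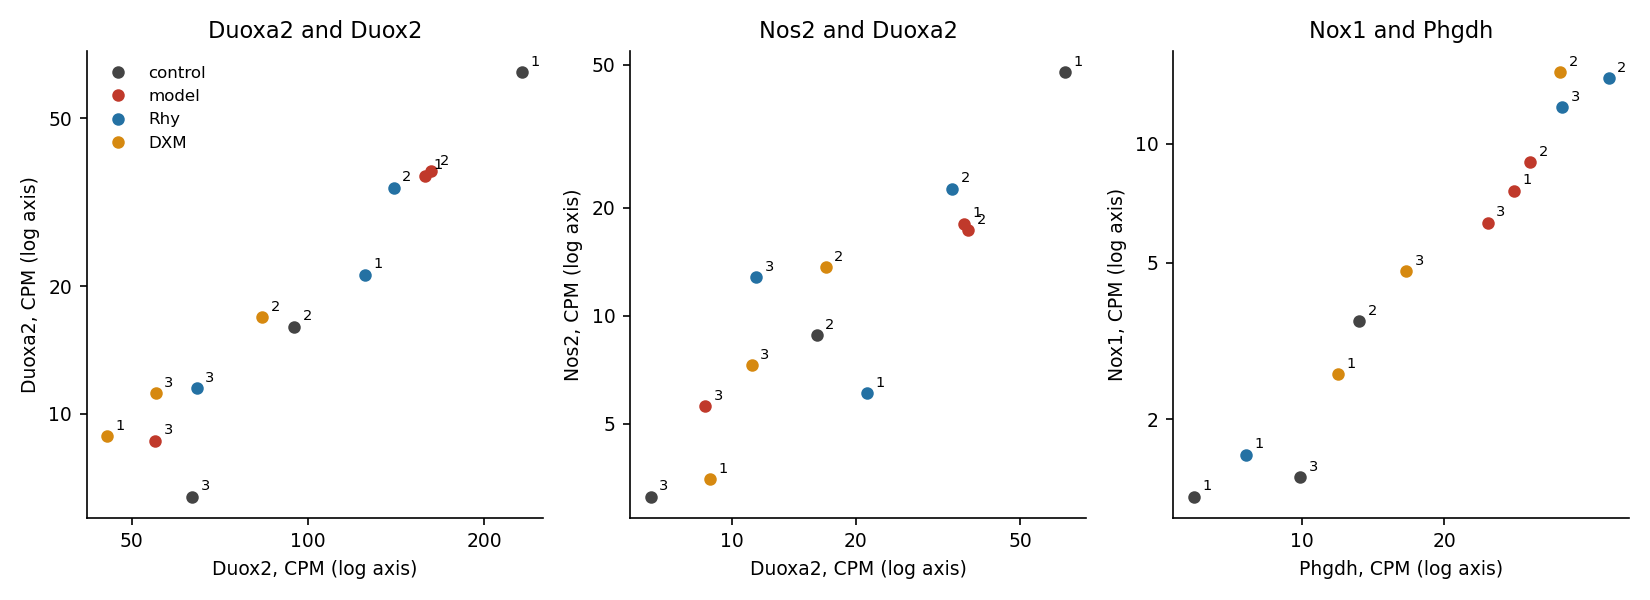
Duoxa2 against Duox2, Nos2 against Duoxa2, and Nox1 against Phgdh, in CPM on logarithmic axes, with 1 point per library numbered by mouse and coloured by group. The Pearson correlations of log2 CPM over the 12 libraries were 0.96, 0.90 and 0.98. In the first 2 plots control 1 had the most and control 3 the least Duoxa2, and in the third the control mice lay at the low end with Rhy 1 and DXM 1.

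Nos2 was low where Hoxb13 was low. The 3 libraries with Hoxb13 under 5 CPM had Nos2 at 3.13, 5.60 and 6.08 CPM, and the other libraries had 3.50 to 47.8 CPM. In a fit with log2 CPM of Hoxb13 added after the data were examined, Nos2 changed by 0.22 on the log2 scale per doubling of Hoxb13 (SE 0.06, p 0.00515, adjusted p 0.0923), while 19.7% of all tested genes had an unadjusted p under 0.05. The same slope was 0.16 for Nox1 (p 0.0495), 0.14 for Duoxa2 (p 0.0564), -0.09 for Noxo1 (p 0.0692) and 0.07 for Duox2 (p 0.158), and for Noxa1 and Cyba it was -0.03 (p 0.298) and -0.0047 (p 0.854). Ly6g moved with Nos2 as well, with a Pearson correlation of log2 CPM of 0.69 over the 12 libraries and 0.54 without control 3 and Rhy 1, and in the 9 libraries outside the DXM group, a choice made after the values were seen, it was 0.96. The part of Ly6g and of position along the colon in the level of Nos2 was not tested.

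**Figure D4:**
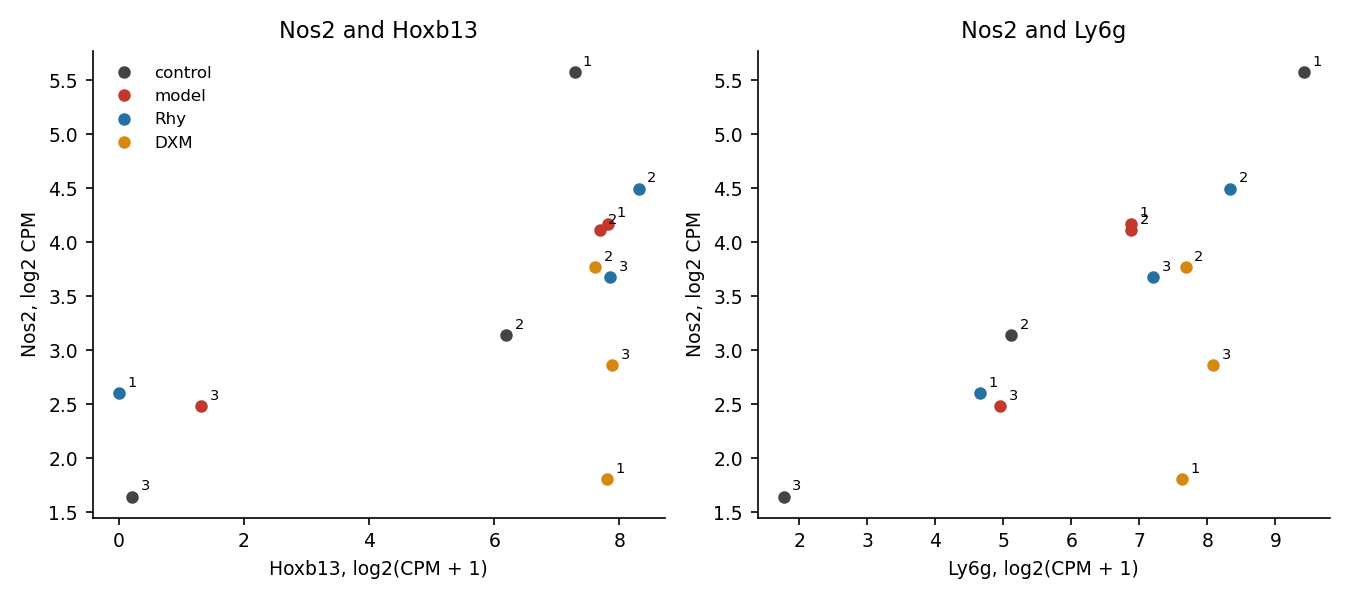
Log2 CPM of Nos2 (vertical axis) against log2(CPM + 1) of Hoxb13 and of Ly6g in the 12 libraries, numbered by mouse and coloured by group. The 3 libraries with the lowest Hoxb13 had Nos2 at 3.13 to 6.08 CPM, and DXM 1 and DXM 3 had Nos2 at 3.50 and 7.29 CPM with Ly6g at 197 and 270.4 CPM.

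In the DXM group the dual oxidase was lowest. The DXM mice had Duox2 at 45.5 to 83.6 CPM, against 54.9 to 162 CPM in the model mice, and their Duoxa2 at 8.85 to 16.9 CPM, against 8.64 to 37.4 CPM. Only model 3 overlapped with the DXM mice for these genes. The log2 fold change of the DXM group against the model group was -1.03 for Duox2 (SE 0.52, 95% interval -2.16 to 0.10, p 0.0711, adjusted p 0.662), -1.16 for Duoxa2 (SE 0.75, p 0.15, adjusted p 0.702) and -0.74 for Nos2 (SE 0.86, p 0.407, adjusted p 0.836). None of these passed the test. Without model 3, Duox2 stood at -1.37 (p 0.0186, adjusted p 0.879). Without the 3 libraries of low Hoxb13, a setting chosen after the data were examined, Duox2 was at -1.37 (p 0.0116, adjusted p 0.476) and Duoxa2 at -1.57 (p 0.0245, adjusted p 0.506), and all 3 DXM mice then lay below the remaining model mice for both genes. In that setting 9.11% of all genes had an unadjusted p under 0.05 and 20.2% had all DXM mice below the model mice, and the model mice left were model 1 and model 2, the pair of libraries most alike. Of the epithelial markers, 8 of 9 were also lower in the DXM group than in the model group (median log2 fold change -0.23). Of the macrophage markers, 7 of 8 were higher (median 1.05), with 3 at an unadjusted p under 0.05, where 7.69% of all genes were. Their summed level was 550 to 976 CPM in the DXM mice against 409 to 513 CPM in the model mice. Much of that sum was Cd14 and Lyz2, at 293 and 137 CPM of 512 CPM in model 1. Cd14 was the marker that was not higher (log2 fold change -0.07). The 4 tested neutrophil markers were all higher, but S100a8, S100a9 and Csf3r were near the floor. S100a9 was at 0, 0.675 and 3.80 CPM in the DXM mice against 0.110, 0.243 and 0.238 CPM in the model mice. Ly6g was higher by 1.35 (SE 1.34, p 0.334, adjusted p 0.808). The sum of the list, 198 to 283 CPM against 30.6 to 118 CPM, was nearly all Ly6g. The 5 smooth muscle markers were higher too, at 4860 to 8783 CPM against 3506 to 4566 CPM in sum. The part of these cell types in the Duox2 and Duoxa2 difference was not tested.

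Against the control group the DXM mice differed by -1.08 for Duox2 (SE 0.52, p 0.0594, adjusted p 0.285) and -1.22 for Duoxa2 (SE 0.75, p 0.131, adjusted p 0.393). These comparisons share the DXM libraries with those above and are not independent of them. Without control 1 they were -0.37 for Duox2 and 0.14 for Duoxa2, and without control 3 they were -1.43 (p 0.0175) and -1.72 (p 0.0277), with adjusted p-values of 0.166 and 0.195.

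Nox1 was the member with the smallest p-values between mice that drank DSS and those that did not. It was at 1.27, 3.55 and 1.43 CPM in the control mice, 7.61, 8.98 and 6.31 CPM in the model mice, 1.63, 14.7 and 12.4 CPM in the Rhy mice and 2.61, 15.2 and 4.76 CPM in the DXM mice. All model mice lay above all control mice, whereas Rhy 1 and DXM 1 lay within the control range. The means were 2.08 ± 1.27 CPM in the control group, 7.64 ± 1.33 in the model group, 9.57 ± 6.98 in the Rhy group and 7.53 ± 6.75 in the DXM group (SD, n = 3 each).

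The model group exceeded the control group 3.67-fold for Nox1, a log2 fold change of 1.87 (SE 0.78, 95% interval 0.16 to 3.58, p 0.0343). The adjusted p was 0.495, so that the difference did not pass the test across all genes, where 9.62% of the genes had an unadjusted p under 0.05 and in 10.4% all model mice lay above all control mice. The Rhy group exceeded the control group by 2.21 (SE 0.79, p 0.0164, adjusted p 0.364) and the DXM group by 1.86 (SE 0.78, p 0.0352, adjusted p 0.234). For the mean of the 3 groups exposed to DSS, the log2 fold change was 1.98 (SE 0.70, p 0.0156, adjusted p 0.196). DESeq2 gave 1.93 with an adjusted p of 0.0317 for this last comparison, the only adjusted p under 0.05 of any member under any alternative tried, and it called 748 genes where edgeR called 0.

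Counts of Nox1 were small, from 17 to 51 in the control libraries and from 106 to 148 in the model libraries, so that single libraries mattered. Against the control group the model group's p was 0.102 without control 1, 0.105 without control 3, 0.0569 without model 1 and 0.0726 without model 2, and 0.0635 with the very similar libraries model 1 and model 2 summed. Its log2 fold change stayed between 1.62 and 2.49 with a library left out, and limma on log2(FPKM + 1), a scale that understates changes of low genes, gave 1.01 (p 0.0665). With the replicate number as a block, it was 2.14 (p 0.00537, adjusted p 0.332). The labels do not say that the replicate numbers pair mice. In the DXM group the difference rested on DXM 2, without which it was 0.83 (p 0.289). Without Rhy 1, the Rhy group exceeded the control group by 2.70 (p 0.00165, adjusted p 0.148).

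The Nox1 locus as annotated is long, from 134086421 to 134221956 on the minus strand of the X chromosome, and it overlaps other genes. It shares 399 bases with Cstf2 on the opposite strand, which had 163 to 1080 counts per library, and the sources used here do not state whether the counting used strand. Cstf2 correlated with Nox1 at 0.81 over the 12 libraries. Its own log2 fold change for model against control was 0.57 (SE 0.39, p 0.17), smaller than that of Nox1, and how far its reads entered the Nox1 counts was not tested.

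The 5 genes most like Nox1 were Phgdh (Pearson 0.98), Pcgf6 (0.96), Mcm7 (0.93), Klhl42 (0.93) and Aunip (0.93). PHGDH starts serine synthesis, and MCM7 is part of the helicase that opens replication origins. Phgdh was at 5.92 to 13.2 CPM in the control mice and 24.7 to 30.4 CPM in the model mice, with the same low libraries Rhy 1 (7.62 CPM) and DXM 1 (11.9 CPM) as Nox1. The likeness is over the same 12 libraries as the comparisons above and adds no independent sample. Over the 12 libraries Nox1 correlated with the other members between -0.14 (Noxo1) and 0.32 (Nos2). Without control 1 and control 3, the libraries farthest from its median, the correlation was 0.78 with Nos2, -0.50 with Noxo1 and -0.49 with Cyba, so that these values depend on those libraries.

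Noxo1, the organizer of the NOX1 complex, was the lowest member and did not follow Nox1. It was at 0.899, 3.55 and 4.17 CPM in the control mice, 3.25, 3.28 and 2.32 CPM in the model mice, 4.02, 1.44 and 1.64 CPM in the Rhy mice and 1.85, 2.17 and 1.77 CPM in the DXM mice. The pair of libraries with the least Noxo1, control 1 and Rhy 2, was the pair with the most Nos2. Between the model and control groups the log2 fold change was 0.03 (SE 0.54, adjusted p 0.989). All DXM mice lay below all model mice, at a log2 fold change of -0.61 (SE 0.54, p 0.282, adjusted p 0.78), in a comparison where 12.2% of the genes showed such a separation. Noxo1 had 12 to 76 counts per library, and 2581 of its bases overlap Tbl3 on the opposite strand, which had 240 to 630 counts.

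Noxa1, the activator, and Cyba, the membrane subunit that several oxidases share, were steady. Noxa1 was at 53.5, 36.5 and 48.3 CPM in the control mice, 52.5, 48.1 and 64.5 CPM in the model mice, 66.1, 66.2 and 39.8 CPM in the Rhy mice and 43.1, 70.1 and 66.7 CPM in the DXM mice. The group means of Noxa1 ran from 46.1 ± 8.69 CPM in the control group to 60.0 ± 14.8 CPM in the DXM group (SD, n = 3 each), and all groups overlapped. Cyba was at 92.7, 106 and 80.0 CPM in the control mice, 117, 113 and 136 CPM in the model mice, 130.0, 144 and 84.5 CPM in the Rhy mice and 158, 83.3 and 114 CPM in the DXM mice. All model mice lay above all control mice for Cyba, a separation that 10.4% of all genes showed. Its log2 fold change was 0.40 (SE 0.26, 95% interval -0.16 to 0.96, p 0.15, adjusted p 0.638). For Noxa1 the same difference was 0.26 (SE 0.26, 95% interval -0.30 to 0.81, adjusted p 0.772). The upper ends of these intervals keep the change of both genes in the model group under 2-fold.

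Rhy was compared with DSS alone to see whether the treatment moved these genes. In none of the 7 did the Rhy group differ from the model group at an unadjusted p under 0.05, in a comparison where 3.72% of all genes did. In none did the libraries of the groups separate, which 11.5% of all genes did. The log2 fold change was -0.19 for Duox2 (95% interval -1.31 to 0.93) and -0.30 for Duoxa2 (-1.92 to 1.32). It was 0.33 for Nox1 (-1.28 to 1.95), 0.02 for Nos2 (-1.84 to 1.88) and -0.33 for Noxo1 (-1.51 to 0.85). The intervals were wide enough to hold changes of more than 2-fold for each of these. They were narrower for the abundant subunits, for Noxa1, at 0.06 (-0.50 to 0.62), and for Cyba, at -0.03 (-0.59 to 0.53).

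**Figure D5:**
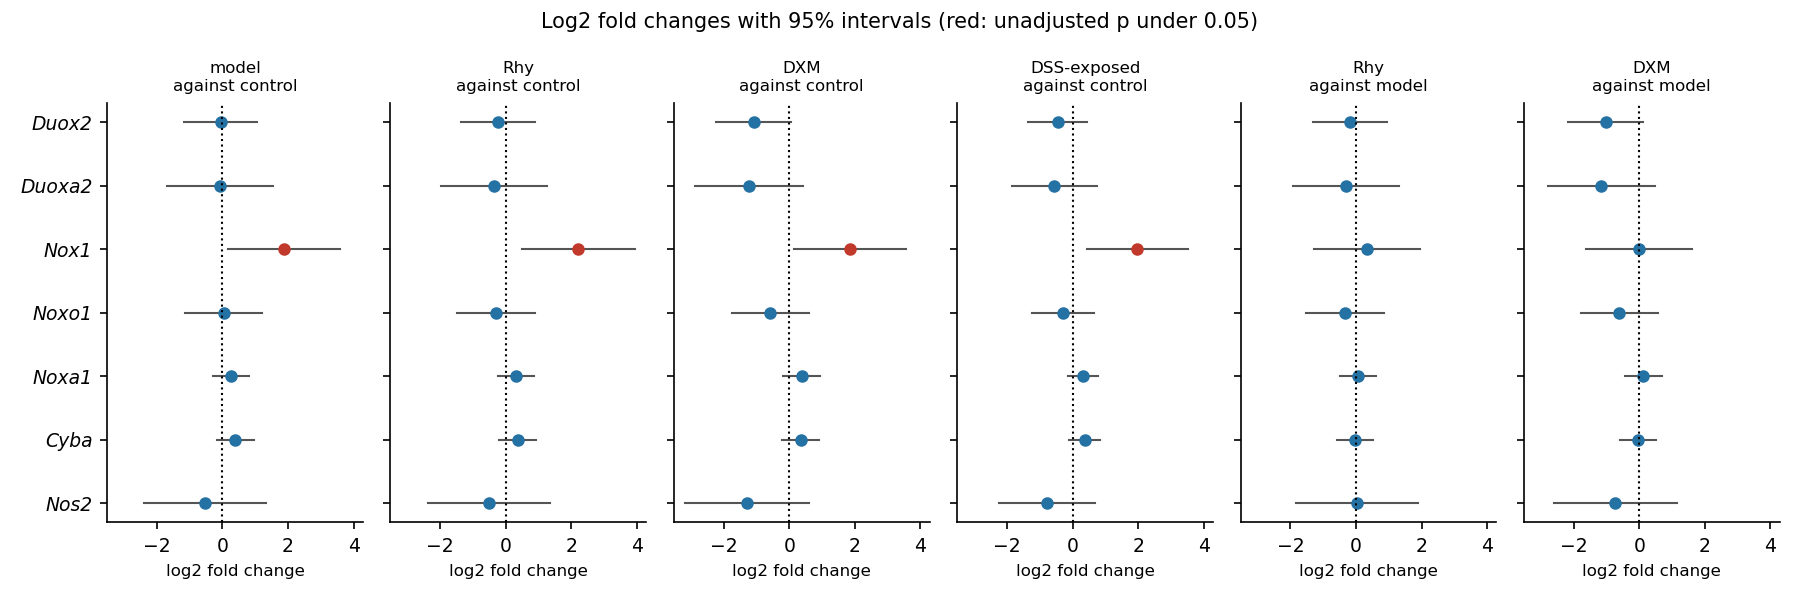
Log2 fold changes (horizontal axis) with 95% intervals of the 7 genes in 6 comparisons from edgeR's fit of the 12 libraries, with red points where the unadjusted p was under 0.05. Nox1 was red in the 4 comparisons with the control group, at 1.86 to 2.21, and none of the points had an adjusted p under 0.05.

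At an adjusted p under 0.05, edgeR called 0 of the 16904 genes in each of the 6 comparisons, a share of 0%, and so called 0 of the 7 members. At an unadjusted p under 0.05 Nox1 was called in the 4 comparisons with the control group and no member in the others. The share of all genes at that threshold was 11.6% for Rhy against control, 18.9% for DXM against control, 17.0% for all DSS-exposed mice against control and 7.69% for DXM against model. The members did not move to a common side, with 4 of 7 higher in the model group than in the control group and a median log2 fold change of 0.03, against 0.01 over all genes. In the DXM group 6 of 7 were lower than in the model group, with a median of -0.61 against -0.01 over all genes. Of these, Nox1 (-0.014) and Cyba (-0.045) were close to 0, and Duox2, Duoxa2 and Nos2 varied together between mice. The median was the value of Noxo1 (p 0.282), so the count and the median do not show a common shift of separate genes.

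Other genes of the oxidase family were taken from a list written from general knowledge. Duox1, Nox3 and Nox4 did not pass the filter on low counts. Duoxa1, the maturation factor of the other dual oxidase, Cybb and Cybc1 of the phagocyte oxidase, and the small GTPases Rac1 and Rac2 passed it, and none of these had an unadjusted p under 0.05 in any of the 6 comparisons of edgeR's test. Cybb, the catalytic subunit of the phagocyte oxidase, was at 11.1 ± 4.07 CPM in the control group and 9.47 ± 0.455 CPM in the model group (SD, n = 3 each), a log2 fold change of -0.22 (SE 0.52, adjusted p 0.915).

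Among 19 tested genes that remove superoxide or peroxide, 11 were higher and 8 lower in the model group than in the control group, with a median log2 fold change of 0.18. The peroxiredoxin gene Prdx4 was at 16.2 ± 2.78 CPM in the control group, 29.1 ± 1.06 in the model group, 37.0 ± 11.8 in the Rhy group and 42.3 ± 12.9 in the DXM group (SD, n = 3 each). Over all DSS-exposed mice its log2 fold change against the control group was 1.14 (SE 0.24, p 0.000584, adjusted p 0.137). Gpx2, the glutathione peroxidase of the intestinal epithelium, was higher by 1.51 (SE 0.54, p 0.017, adjusted p 0.201) and Prdx1 by 0.60 (SE 0.27, p 0.0469, adjusted p 0.286). These 3 were the only genes of the 19 with an unadjusted p under 0.05 in that comparison, where 17.0% of all genes had one. In the DXM group Txnrd1, a thioredoxin reductase, was lower than in the model group by a log2 fold change of -0.85 (SE 0.27, p 0.00848, adjusted p 0.622). It was the 1 lower gene of the 19 at an unadjusted p under 0.05 there, beside 1 higher gene, where 7.69% of all genes were called.

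Of 17 tested genes of nitric oxide and arginine metabolism, 11 were higher and 6 lower in the model group, with a median log2 fold change of 0.16. None had an unadjusted p under 0.05 in that comparison. Ass1, which regenerates arginine for nitric oxide synthesis, was at 29.3 ± 13.7 CPM in the control group and 48.3 ± 4.94 CPM in the model group (SD, n = 3 each), a log2 fold change of 0.72 (SE 0.40, p 0.0932, adjusted p 0.583). Nos1, the neuronal synthase, was lower in the Rhy group than in the model group by -1.31 (SE 0.46, p 0.0154). In the DXM group it was lower by -1.03 (SE 0.46, p 0.0458, adjusted p 0.646), and these comparisons share the model libraries. For Rhy against model the smallest adjusted p of any gene was 0.964. The model mice had Nos1 at 33.4, 28.0 and 14.8 CPM. The soluble guanylate cyclase subunit Gucy1a1, the receptor side of nitric oxide signalling, was higher in the DXM group than in the model group by 0.68 (SE 0.18, p 0.00227, adjusted p 0.622), and all 5 smooth muscle markers were higher there too, with a median of 0.69.

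The cytokines, receptors and factors listed around the induction of Duox2, Nox1 and Nos2 had mostly lower values in the model group. Not all genes of this list are inducers. Of 22 tested, 19 were lower in the model group than in the control group, with a median log2 fold change of -0.27 against 0.01 over all genes. In all DSS-exposed mice against the control group, 5 of the 22 (all lower) had an unadjusted p under 0.05, where 17.0% of all genes did, and 0 had an adjusted p under 0.05. Il22ra1, a subunit of the epithelial receptor for interleukin-22, was at 20.7 ± 13.6 CPM in the control group, 9.70 ± 2.01 in the model group, 11.2 ± 3.85 in the Rhy group and 4.66 ± 2.38 in the DXM group (SD, n = 3 each), and its log2 fold change over all DSS-exposed mice was -1.38 (SE 0.41, p 0.00605, adjusted p 0.153). The interferon-gamma receptor genes Ifngr2 and Ifngr1 were lower by -0.73 (SE 0.22, p 0.00671) and -0.53 (SE 0.18, p 0.0134). Of the 9 epithelial markers 7 were lower and 2 higher in the same comparison (median -0.34), with Krt20, Vil1 and Epcam at an unadjusted p under 0.05 and Cdx1 higher by 0.35 (p 0.147). Their part in the level of these receptors was not tested. Ifng, Il17a and Il6 did not pass the filter on low counts, and Il22 had no count in the 3 model libraries. The list did not lean to 1 side in the DXM group against the model group, with 10 higher and 12 lower. In that comparison Il1b and Il6ra had an unadjusted p under 0.05, both higher, where 7.69% of all genes did. Il1b was at 1.99 to 8.46 CPM in the DXM mice against 0.298 to 2.31 CPM in the model mice, a log2 fold change of 1.93 (SE 0.71, p 0.0183, adjusted p 0.63). For Il6ra the log2 fold change was 0.96 (SE 0.39, p 0.0296, adjusted p 0.637). Il22 is not counted with them and was at 0.137, 1.49 and 1.77 CPM in the DXM mice. It passed the filter on low counts only through DXM 2, DXM 3 and Rhy 2 (0.849 CPM). Its p is therefore no support for a difference and is not given.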

How the data were processed

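The members and the gene lists were chosen with earlier results of these data known. Per the labels, the authors sequenced mRNA libraries made from 5 μg of total RNA, and their processing notes name HISAT2 2.0.5, featureCounts 1.5.0-p3, DESeq2 1.16.1 and the genome build mm10, without saying whether strand was used. The authors deposited raw counts of reads per gene without normalization. The authors also deposited FPKM, which these counts give once divided by gene length and scaled depth: 100% of the values were recovered within 0.1% or 0.001 FPKM. Gene coordinates matched GENCODE M21 for 98.3% of the shared identifiers and for 6 of the 7 members.

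Total counts were 14346478 to 17749716 per library, and 24548 of the 54532 genes had no count. Groups were taken from the labels. The DXM group is not named in the RNA-Seq methods of the study and was analysed as a further group. Tests were two-sided quasi-likelihood tests on group means (glmQLFit and glmQLFTest of edgeR 4.0.16 in R 4.3.3), after filterByExpr at a minimum count of 10 and TMM scaling. The 12 libraries shared a single fit, since 3 per group say little about their spread. Benjamini-Hochberg adjustment ran over the 16904 genes of each comparison. DSS-exposed mice against control compared the mean of the 3 exposed groups on the log2 scale. The SE is the log2 fold change divided by the square root of F. CPM carries no prior count, and correlations used log2 CPM with a prior count of 2, except those with Ly6g, which used none. The test was tested on simulated data. Named beside the members were the 5 genes most like Duox2, Nox1 and Nos2 and at most 4 genes per pathway list by p; other genes were chosen after their values were seen. Part of the oxidase list is not reported here. Promoter windows came from RefSeq on GRCm38.p6.

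The alternatives were RLE and upper-quartile scaling, only the groups compared, genes with any count, DESeq2 1.42.0, limma 3.58.1 on log2(FPKM + 1), a replicate block, Hoxb13 as a covariate, model 1 and model 2 as 1 library, and each library left out. Removing the 3 libraries with Hoxb13 under 5 CPM, and a replicate block on only the control and model libraries, were added after the data were examined. Deviations from the group means of same-numbered control and model mice correlated at 0.21, 0.10 and 0.36, above 0.1 in every pair. Mice of unlike number were not compared in this way, so these values cannot show that the numbers pair mice. Control 3 and model 3, the pair at 0.36, both had Hoxb13 under 5 CPM. The replicate block is therefore given as an alternative only. In the other pairs of groups at least 1 of the 3 values lay under 0.1 (lowest -0.31), and the labels name no shared litter, batch or day.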

Additional observations from a re-analysis of the deposited data

How the results depend on the processing

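With edgeR, 0 genes had an adjusted p under 0.05 in each comparison. The count became 1 for model against control, 1 for Rhy against control, 13 for DXM against control and 44 for DSS-exposed mice against control with genes of any count, 1 for model against control and 2 for DXM against model with only the groups compared, and DESeq2 gave 1059 for DXM against control, 748 for DSS-exposed mice against control, 51 for DXM against model, 46 for model against control, 32 for Rhy against control and 5 for Rhy against model. Without the 3 libraries of low Hoxb13 it was 2 for DXM against model and 350 for DSS-exposed mice against control. With a library left out it ran from 0 to 1 for model against control and Rhy against model, 0 to 4 for DXM against control, 0 to 27 for DSS-exposed against control (27 without DXM 1) and stayed at 0 for the other comparisons.

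Members with an unadjusted p under 0.05 were 1 (Nox1) in each comparison with control and 0 in the others. For DXM against model the count was 1 with genes of any count, with only the groups compared, with DESeq2 and with Hoxb13 as a covariate, and 2 without the 3 libraries. For DXM against control it was 3 with genes of any count and without the 3 libraries, 2 with only the groups compared, with DESeq2, with Hoxb13 as a covariate and under the replicate block, and 0 with limma. It was 0 for model against control with limma, with model 1 and model 2 as 1 library and without the 3 libraries, and 0 for Rhy against control with limma. With a library left out it ran from 0 to 1 in model against control, Rhy against control and DXM against model, from 1 to 3 in DXM against control and from 0 to 2 in DSS-exposed against control, and stayed at 0 in Rhy against model.

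Directions turned in log2 fold changes close to 0. Noxo1 in model against control became -0.024 with RLE, -0.027 with DESeq2 and -0.041 with model 1 and model 2 as 1 library. In DXM against model, Nox1 became 0.053 with upper-quartile scaling and 0.051 with the merged library, and Cyba 0.032 with upper-quartile scaling and 0.054 without the 3 libraries. In Rhy against model, Cyba became 0.015 without the 3 libraries, Duox2 0.053 and Duoxa2 0.18 with Hoxb13 as a covariate, and Duox2 0.031 and Noxa1 -0.0025 with the merged library. Duoxa2 became 0.19 (model) and 0.047 (Rhy) against control with limma, and 0.0092 (Rhy) with the covariate. The replicate block gave 0.056 for Duoxa2 in model against control and -0.050 for Nox1 in Rhy against model. With the block on only the control and model libraries, added after the data were examined, Duoxa2 was 0.27 and Nos2 0.12, and 1 gene had an adjusted p under 0.05. The block changed no other call in model against control. The cause of these changes was not tested.

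With each library left out, the direction was not kept in these ranges. In model against control they were -0.41 to 0.66 for Duox2, -0.57 to 1.30 for Duoxa2, -0.39 to 0.37 for Noxo1 and -1.08 to 1.20 for Nos2. In Rhy against control they were -0.58 to 0.48, -0.85 to 1.00, -0.90 to 0.060 and -1.06 to 1.22 for the same genes. In DXM against control they were -1.72 to 0.14 for Duoxa2 and -1.87 to 0.46 for Nos2. In DSS-exposed mice against control they were -0.81 to 0.26 for Duox2, -1.05 to 0.81 for Duoxa2, -0.70 to 0.066 for Noxo1 and -1.30 to 0.96 for Nos2. In Rhy against model they were -0.52 to 0.084 for Duox2, -0.75 to 0.015 for Duoxa2, -0.11 to 0.83 for Nox1, -0.056 to 0.27 for Noxa1, -0.19 to 0.16 for Cyba and -0.53 to 0.37 for Nos2. In DXM against model they were -1.05 to 0.39 for Nox1, -0.0047 to 0.31 for Noxa1 and -0.31 to 0.15 for Cyba.

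Low counts limited Noxo1, with 12 to 76 per library, and Nox1 in the control group, with 17 to 51. The part of the overlap with Tbl3 in the low Noxo1 counts was not tested. Groups of 3 left intervals for Duoxa2 and Nos2 that span more than 4-fold, so a missing call does not show that groups were alike. Neither RLE nor upper-quartile scaling moved the median of all genes by more than 0.1.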
